A study of Mus musculus with 9 samples.

Results

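The genes described here are 49 type I interferon-stimulated genes together with the STAT and IRF factors that drive them, taken by symbol from a table of 56691 genes. A gene was kept when at least 1 of the 9 libraries held 10 or more counts, and all 49 listed genes met this rule, so none was dropped. The rule used only their names and this minimum, but the list was drawn up with earlier results of these data known. Counts set below beside those of all genes are therefore not those of a list picked blind. RNA was sequenced from RAW264.7 cells, a mouse macrophage line that forms osteoclasts when given the cytokine RANKL. The 3 groups of 3 libraries were an untreated control (Ctrl), RANKL alone (RANKL), and RANKL together with uridine (UDRANKL, written RANKL + UD). Harvest was by default 3 days after RANKL was added. The UD dose for these libraries is not given in the sources used here, no library with UD alone is among those analysed, and all cells are of this 1 line.

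Type I interferons are secreted proteins that bind the receptor pair IFNAR1 and IFNAR2. The kinases JAK1 and TYK2 then activate STAT factors, among them STAT2, which with IRF9 bind the interferon-stimulated response element (ISRE) in the promoters of antiviral genes. IRF7 amplifies the response by raising interferon production. In osteoclast precursors, interferon-β made in response to RANKL is known as a brake on differentiation, and IRF8 is known as another.

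Library totals ranged from 15951800 to 19746862 counts, and libraries of the same group differed by 2.83 to 8.22 times the counting noise (chi-square per degree of freedom), so none was a copy of another. Osteoclast markers followed the labels, and macrophage markers did so in part. The summed level of 7 macrophage markers was 8954 to 9553 FPKM (counts scaled to exonic length and to the library's total count) in control, 2492 to 2728 in RANKL and 2164 to 2301 in RANKL + UD, and most of it was Lyz2, with a control mean of 8000 FPKM. Of the 7, 5 fell with RANKL, while Cd68 (log2 0.61) and Spi1 (0.65) rose, and with UD Adgre1 rose (0.22) and the other 6 fell. The summed level of 10 osteoclast markers was 57.6 to 60.3, 2715 to 2920 and 1724 to 1761 FPKM in the same order. Both sums moved with the treatments beside every result below, and their part in the results was not tested. Of the markers of T cells, B cells and neutrophils, 2 of 4, 2 of 3 and 2 of 3 had no count in any library. The 3 fibroblast markers summed to at most 1.19 FPKM. The 4 plasmacytoid dendritic cell markers differed. Siglech had no count outside control, where its mean was 0.15 FPKM, and Ccr9 held at most 8 counts in a library. Bst2, itself among the interferon-stimulated genes described here, had means of 84.6, 34.6 and 42.3 FPKM in control, RANKL and RANKL + UD. Tcf4 had means of 5.93, 3.85 and 3.82 FPKM in the same order. In bulk RNA, fewer cells of a type and less RNA per cell cannot be told apart.

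The interferon element stood in the promoters of many of these genes, from Ifit1 and Isg15 to Gbp7. RefSeq (GRCm38.p6) windows of 300 bases, 250 before and 50 after a transcription start, were matched by symbol for 38 of the 49 genes. No window was matched for Usp18, Oas2, Mx1, Mx2, Dhx58, Zbp1, Parp9, Parp14, Ifi204, Rtp4 and Ifi27l2a. The ISRE core, GAAA, any 2 bases and GAAA again, on either strand, was found in 19 of 38 genes (50.0%), against 1079 of 27025 genes (3.99%) over the whole promoter table. The gamma-activated sequence (GAS) TTCNNNGAA, an element bound by STAT dimers, was found in 9 of 38 genes (23.7%), against 9.55% of all genes. A match to the ISRE and one to GAS overlapped in 1 window, that of Bst2. These matches describe letters in a window and do not show binding, and genes of 1 family share promoter sequence.

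The promoters of 6 genes are shown because these genes had large changes in the comparisons below and an ISRE match before the start. Each is the 250 bases before the start, read 5′ to 3′ on the gene's strand, with the ISRE matches in capitals. Gbp7, Slfn8 and Trim30a were taken for their change with RANKL, and Ifit1, Ifit3 and Irgm1 for their change with UD, Ifit3 by its size alone since it had no call.
Gbp7 (chr3:142530086-142530335, plus strand): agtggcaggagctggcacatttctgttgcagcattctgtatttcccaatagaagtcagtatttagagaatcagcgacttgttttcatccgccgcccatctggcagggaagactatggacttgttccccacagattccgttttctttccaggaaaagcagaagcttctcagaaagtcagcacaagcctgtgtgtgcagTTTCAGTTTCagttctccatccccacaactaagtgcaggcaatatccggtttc
Slfn8 (chr11:83020811-83021060, minus strand): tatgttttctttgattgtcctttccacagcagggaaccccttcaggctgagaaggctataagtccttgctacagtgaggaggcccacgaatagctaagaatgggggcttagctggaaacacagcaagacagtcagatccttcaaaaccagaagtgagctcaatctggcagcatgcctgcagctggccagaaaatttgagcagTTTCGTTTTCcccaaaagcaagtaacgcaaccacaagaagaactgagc
Trim30a (chr7:104465194-104465443, minus strand): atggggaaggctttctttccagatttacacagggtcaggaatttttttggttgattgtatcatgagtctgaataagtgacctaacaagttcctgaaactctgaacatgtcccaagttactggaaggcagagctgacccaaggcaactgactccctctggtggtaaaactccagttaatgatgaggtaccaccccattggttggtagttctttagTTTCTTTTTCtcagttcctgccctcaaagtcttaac
Ifit1 (chr19:34640639-34640888, plus strand): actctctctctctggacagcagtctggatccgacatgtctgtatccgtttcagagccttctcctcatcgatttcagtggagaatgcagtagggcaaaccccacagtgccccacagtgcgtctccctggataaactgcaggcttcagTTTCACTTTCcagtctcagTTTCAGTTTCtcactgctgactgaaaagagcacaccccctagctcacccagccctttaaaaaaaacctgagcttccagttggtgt
Ifit3 (chr19:34583279-34583528, plus strand): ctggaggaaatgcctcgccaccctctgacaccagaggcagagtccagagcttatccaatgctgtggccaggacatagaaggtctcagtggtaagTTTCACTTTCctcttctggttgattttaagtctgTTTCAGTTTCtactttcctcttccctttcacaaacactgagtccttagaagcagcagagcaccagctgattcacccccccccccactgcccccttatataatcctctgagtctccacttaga
Irgm1 (chr11:48871421-48871670, minus strand): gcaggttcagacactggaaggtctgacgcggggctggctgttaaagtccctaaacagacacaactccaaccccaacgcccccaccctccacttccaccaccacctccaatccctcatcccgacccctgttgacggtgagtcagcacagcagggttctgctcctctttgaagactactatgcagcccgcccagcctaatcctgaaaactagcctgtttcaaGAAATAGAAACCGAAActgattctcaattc
Ifit1 and Ifit3 each held 2 separate matches, and the 2 matches of Irgm1 overlapped each other at positions −30 to −15 from the start. Gbp7, the gene that rose most, held a match at positions −53 to −44. In all, 7 genes had more than 1 match in a window: Bst2, Gbp3, Ifit1, Ifit3, Irgm1, Isg15 and Oas1a.

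The levels of the genes spanned almost 3 orders of magnitude. In control, the mean FPKM ran from 0.317 ± 0.104 for Gbp2, a guanylate-binding GTPase (SD, n = 3), to 268 ± 39.7 for Ifi27l2a, a small mitochondrial membrane protein. Slfn2 (101 ± 3.47), Bst2 (84.6 ± 9.01) and Lgals3bp (58.6 ± 6.0) followed at the top. The neighbours Slfn2 and Bst2 did not overlap in control, where the lowest Slfn2 library was at 97.16 FPKM and the highest Bst2 library at 92.44 FPKM. Mx1, Zbp1, Gbp7, Gbp3 and Gbp2 lay at or below 1.20 FPKM in control, so their folds rest on few counts. For Gbp7, which rose, the control counts were 49, 56 and 32. For Mx1, which fell, the counts were fewest in the treated libraries, as given below.

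**Figure D1:**
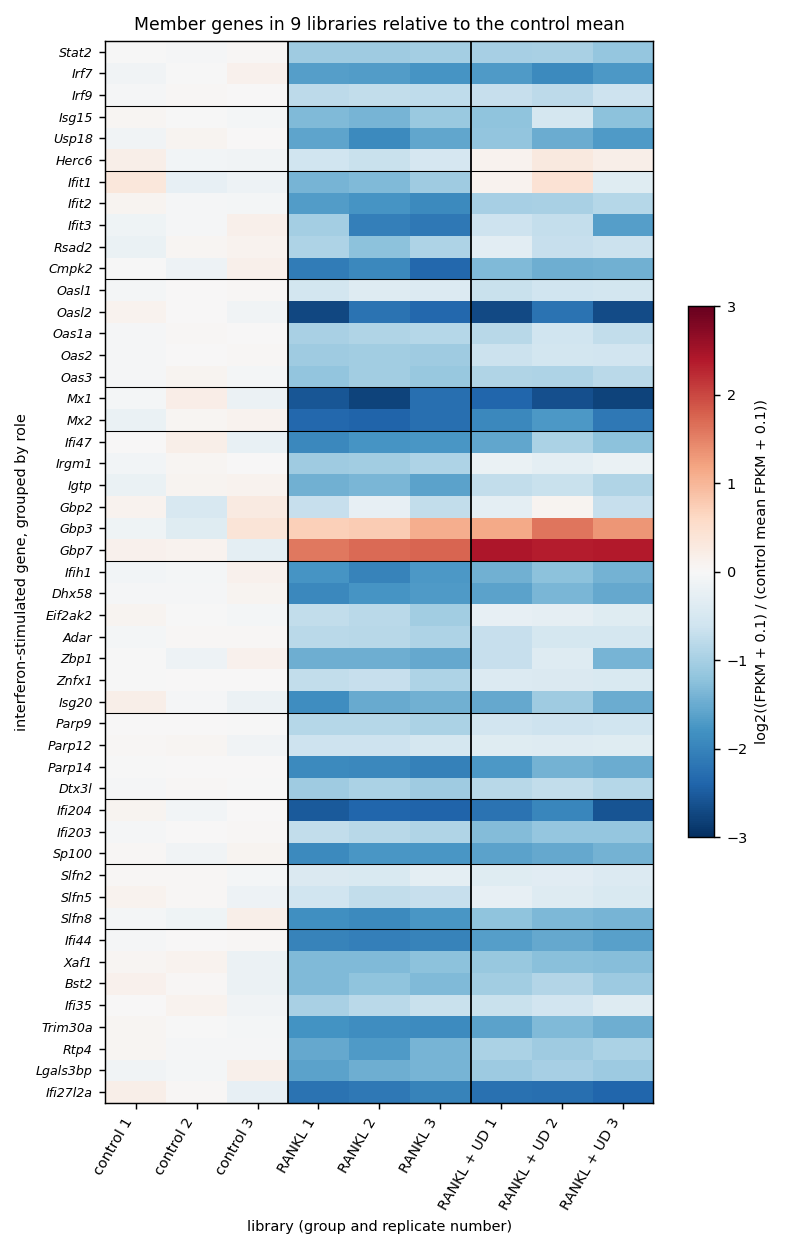
Heat map of the 49 genes (rows, grouped by role) in the 9 libraries (columns); colour is log2 of FPKM + 0.1 relative to the control mean. The RANKL and RANKL + UD columns are blue in nearly all rows, with Gbp3 and Gbp7 red.

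The first comparison asked how the interferon program changed as RANKL turned macrophages into osteoclasts. With RANKL, 46 of 49 genes fell, against 26.2% of the 15575 genes tested. Gbp7 and Gbp3 rose, against 24.4% of all genes, and Gbp2 had no call. A log2 change of at least 1 in size was reached by 28 of those that fell, against 8.25% of all genes, and by both that rose, against 7.07%. The median log2 fold change of the 49 genes was −1.25, a median level 2.37-fold lower, and that of all genes tested was −0.03. In 46 genes every RANKL library lay below every control library in FPKM, against 35.4% of all genes, and in 2 every one lay above, against 21.2%. A gene was called at an adjusted p under 0.05 (edgeR, quasi-likelihood, adjusted by Benjamini-Hochberg over all genes), and standard errors (SE) are from that fit. Labels of control and RANKL + UD call the replicates biosamples, but nothing in the labels says that replicates came from separate cultures. These p-values therefore measure the spread between these libraries, which may be technical. FPKM values divide by the total count, while the fitted folds use TMM scaling. Without TMM, the median of all genes moved to −0.13 and the share of higher genes among all calls from 48.2% to 37.5%. Scaling did not change the call or direction of any of the 49 genes here.

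The 3 regulators fell together. Irf7, the amplifier of interferon production, measured 15.00, 16.01 and 17.73 FPKM in control, 5.07, 5.04 and 4.68 in RANKL, and 4.92, 4.22 and 4.83 in RANKL + UD. All 6 treated libraries lay far below the lowest control library, and the treated groups overlapped. Irf7 was 3.08-fold lower with RANKL (log2 −1.62, SE 0.0896, edgeR adjusted p = 5.7e-14).
Stat2, the STAT partner of interferon receptor signalling, measured 7.28, 7.17 and 7.50 FPKM in control, 3.43, 3.45 and 3.55 in RANKL, and 3.64, 3.66 and 3.23 in RANKL + UD. Irf9, the DNA-binding partner of the STATs, measured 11.13, 11.58 and 11.43 FPKM in control, 6.58, 6.83 and 6.64 in RANKL, and 6.97, 6.53 and 7.31 in RANKL + UD. Control stood above both treated groups for each gene, and the treated groups overlapped. The log2 change with RANKL was −0.98 for Stat2 and −0.67 for Irf9. Reads of Irf7 and of Irf9 could in part belong to overlapping genes, Phrf1 on the opposite strand and Rnf31 on the same strand, since the use of strand in counting is not given in the sources used here.

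Mx1 and Mx2, dynamin-like GTPases that trap viral particles, were among the genes that fell furthest. Mx1 held 65, 93 and 57 counts in control, 8, 6 and 11 in RANKL, and 10, 6 and 5 in RANKL + UD. Every treated library was far below control, and the treated groups overlapped at the level of a few counts. Mx1 was 8.71-fold lower with RANKL (log2 −3.12, SE 0.359).
Mx2 measured 2.53, 3.04 and 3.12 FPKM in control, 0.49, 0.47 and 0.52 in RANKL, and 0.69, 0.81 and 0.58 in RANKL + UD. The 3 groups did not overlap. Its log2 change with RANKL was −2.45 (SE 0.189).

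The 5 OAS genes fell with RANKL, by −0.35 for Oasl1 to −2.53 for Oasl2 on the log2 scale. OAS1, OAS2 and OAS3 enzymes make 2-5A, the second messenger that activates the nuclease RNase L, whereas the OASL proteins are relatives of these enzymes. Oasl2 measured 3.53, 3.30 and 3.05 FPKM in control, 0.41, 0.63 and 0.56 in RANKL, and 0.42, 0.63 and 0.43 in RANKL + UD. Treated libraries were all low, and the groups with and without UD overlapped. Oas1a has a near-identical neighbour, Oas1g, so reads could be split between them. Oas1g, measured apart, fell by 0.52.

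All 5 genes of the IFIT and viperin group fell. Ifit1, Ifit2 and Ifit3 encode proteins that bind foreign RNA or the partners of such proteins, Rsad2 encodes viperin, and Cmpk2, its neighbour, encodes a mitochondrial nucleotide kinase. Cmpk2 measured 5.92, 5.41 and 6.64 FPKM in control, 1.32, 1.49 and 1.09 in RANKL, and 2.35, 2.11 and 2.16 in RANKL + UD. The RANKL + UD libraries lay between the other groups without overlap. Cmpk2 was 4.31-fold lower with RANKL (log2 −2.11, SE 0.131), and the other 4 genes fell by 0.99 to 1.74 on the log2 scale.

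The p200 family gene Ifi204, a nucleic acid-binding nuclear protein, measured 13.74, 12.17 and 13.01 FPKM in control, 2.18, 2.43 and 2.37 in RANKL, and 2.73, 3.25 and 2.06 in RANKL + UD. Both treated groups were low, and they overlapped. Ifi204 was 5.21-fold lower with RANKL (log2 −2.38, SE 0.12). Its family members share sequence, so their reads are uncertain. Ifi203 fell by 0.73 and the nuclear body protein Sp100 by 1.73.

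The RNA sensors and RNA-binding enzymes, 7 genes, fell by 0.69 (Znfx1) to 1.77 (Ifih1, the MDA5 sensor of long double-stranded RNA). Dhx58 (LGP2, a regulator of MDA5) fell by 1.74, Zbp1, a sensor of Z-form nucleic acid, by 1.72 and the exonuclease gene Isg20 by 1.64. Eif2ak2 (PKR, which halts translation on binding double-stranded RNA) fell by 0.76 and the RNA editing enzyme gene Adar by 0.77. The 4 ADP-ribosylation genes fell by 0.50 (Parp12) to 1.88 (Parp14), and Parp9 and Dtx3l, which form a complex and overlap head to head in the genome, by 0.79 and 0.94. In the ISG15 system, the ubiquitin-like modifier gene Isg15 fell by 1.20, Usp18, which removes the modifier, by 1.59, and Herc6, the mouse ligase that attaches it, by 0.53. The Schlafen genes Slfn2, Slfn5 and Slfn8 fell by 0.30, 0.58 and 1.76.
The other 8 membrane, secreted and signalling genes fell by 0.72 (Ifi35) to 2.03 (Ifi27l2a), among them Bst2 (tetherin, which holds budding virus at the cell surface), by 1.19. Ifi44 measured 38.11, 39.24 and 40.05 FPKM in control and 9.63, 9.37 and 9.67 in RANKL. Spread within each group was small beside the 3.83-fold difference (log2 −1.94, SE 0.0538).

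The GTPases of the IRG and GBP families did not move together. Ifi47, Irgm1 and Igtp, immunity-related GTPases that act on membranes around pathogens, fell by 1.79, 0.93 and 1.42. Gbp7 measured 0.52, 0.51 and 0.36 FPKM in control, 1.58, 1.73 and 1.79 in RANKL, and 2.94, 2.80 and 2.82 in RANKL + UD. The groups were stepwise apart with no overlap. Gbp7 rose 3.92-fold with RANKL (log2 1.97, SE 0.156, edgeR adjusted p = 7.43e-11).
Gbp3 measured 0.35, 0.28 and 0.54 FPKM in control, 0.70, 0.73 and 0.94 in RANKL, and 0.98, 1.39 and 1.13 in RANKL + UD. It was above control in both treated groups, at low levels throughout. Gbp3 rose 2.20-fold with RANKL (log2 1.14, SE 0.291), and its counts were 18 to 28 in control and 45 to 59 in RANKL.
Gbp2, with 15, 10 and 16 counts in control, 8, 12 and 7 in RANKL, and 12, 14 and 7 in RANKL + UD, had no call in any comparison. Its counts overlapped between all groups, Gbp2b is a near copy that can share them, and its log2 change with RANKL was −0.67 with an SE of 0.56. A difference of that size was not detectable at this depth.

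**Figure D2:**
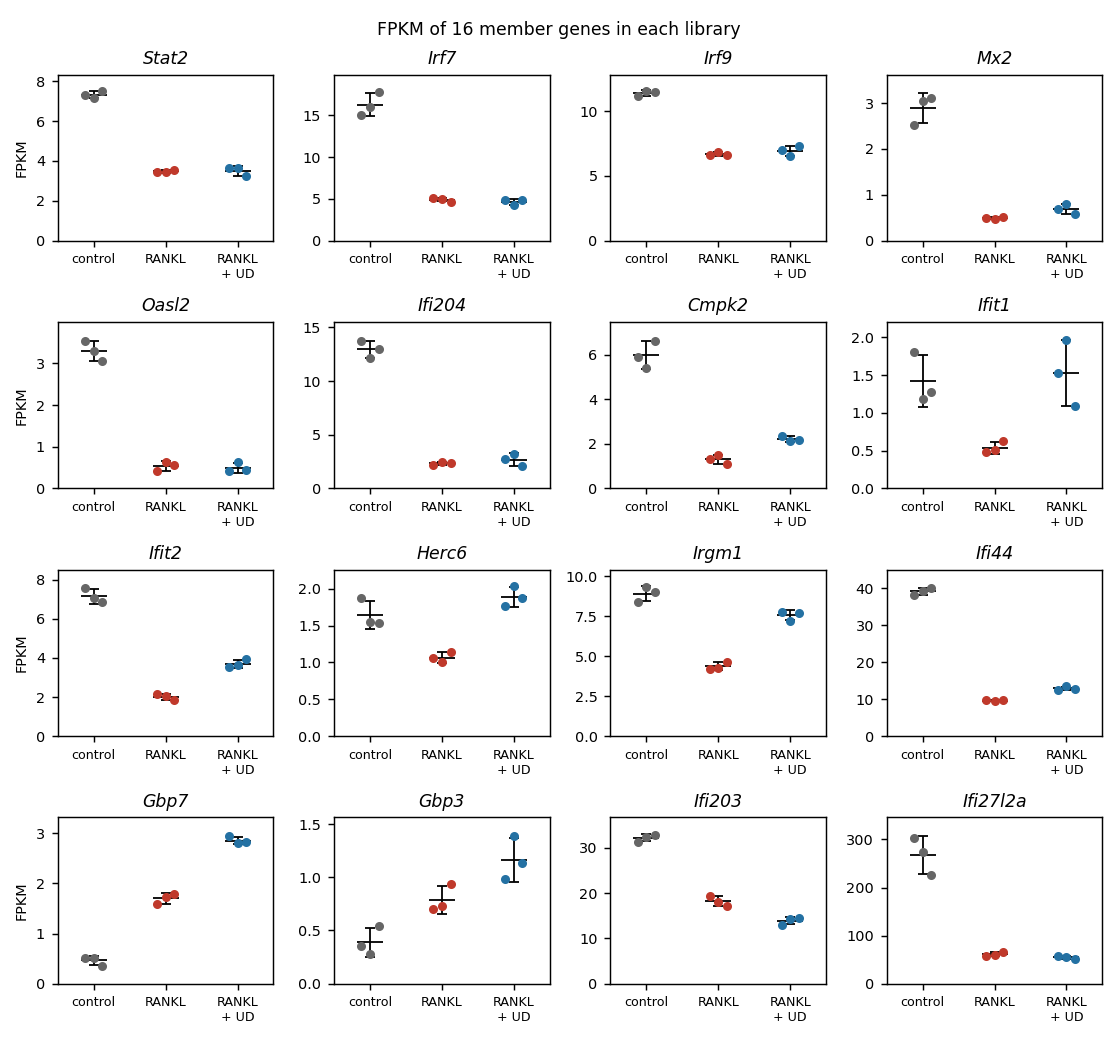
FPKM of 16 genes in each library (points; control grey, RANKL red, RANKL + UD blue) with the group mean and SD (bars, n = 3); each panel has its own axis from 0. Irf7, Stat2 and Irf9 are low in both treated groups, while Ifit1, Ifit2, Herc6, Irgm1 and Cmpk2 are higher with UD than with RANKL alone.

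The second comparison asked what UD changed in cells given RANKL. With UD, 23 of 49 genes rose, against 14.8% of all genes tested, 3 fell, against 16.5%, and 23 had no call. The median log2 fold change of the 49 genes was 0.23, that is 1.18-fold higher, and that of all genes was 0.003. In 32 genes every RANKL + UD library lay above every RANKL library in FPKM, against 29.1% of all genes. In 3 every one lay below, against 15.7%, and 14 overlapped. These counts use FPKM without TMM scaling, unlike the calls, so the 32 and the 23 are not on the same scale. A log2 change of at least 1 was reached by Ifit1 among those that rose, against 1.68% of all genes, and by none that fell, against 2.22%. With total-count scaling, the median of all genes moved to 0.09, that of the 49 genes to 0.32, and the share of higher genes among all calls from 47.4% to 65.5%. Relative to the median of all genes, that of the 49 genes was 0.23 higher under either scaling. A change of scaling moves all genes by nearly the same amount, so this was fixed in advance and is no check.

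The 3 regulators had no call. Their log2 changes with UD were −0.17 for Irf7 (SE 0.0966, edgeR adjusted p = 0.21), −0.07 for Stat2 (SE 0.0884, adjusted p = 0.587) and −0.03 for Irf9 (SE 0.0726, adjusted p = 0.791). The sign for Stat2 and Irf9 turned with total-count scaling, to 0.014 and 0.055. These values do not show that the levels were equal.

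The IFIT and viperin group held the largest rise. Ifit1 measured 1.81, 1.18 and 1.27 FPKM in control, 0.48, 0.51 and 0.63 in RANKL, and 1.53, 1.96 and 1.09 in RANKL + UD. The RANKL libraries were below all others, and control and RANKL + UD overlapped. Ifit1 rose 2.67-fold with UD (log2 1.41, SE 0.27, edgeR adjusted p = 0.000211), from 25 to 32 counts to 50 to 85.
Ifit2 measured 7.60, 7.05 and 6.86 FPKM in control, 2.16, 2.03 and 1.85 in RANKL, and 3.52, 3.62 and 3.95 in RANKL + UD. Its RANKL + UD libraries lay between the other groups without overlap. Ifit2 rose 1.73-fold with UD (log2 0.79, SE 0.112), and Cmpk2, whose values are given above, rose 1.60-fold (log2 0.68, SE 0.141).
Ifit3 had no call (log2 0.73, SE 0.387), with 29, 12 and 11 counts in RANKL and 39, 30 and 15 in RANKL + UD. Without RANKL replicate 1 its log2 change was 1.30 (edgeR adjusted p = 0.0252). Ifit3b, a near copy, can share its reads. Rsad2 rose by 0.45 (edgeR adjusted p = 0.0475), a call lost in 12 of the 19 alternative settings of its fold change, DESeq2 included (adjusted p = 0.0774).

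Herc6 measured 1.87, 1.55 and 1.53 FPKM in control, 1.06, 1.00 and 1.14 in RANKL, and 1.77, 2.04 and 1.88 in RANKL + UD. RANKL libraries were lowest, and RANKL + UD overlapped control. Herc6 rose 1.67-fold with UD (log2 0.74, SE 0.117, edgeR adjusted p = 2.14e-05). The modifier gene Isg15 had no call (log2 0.23, SE 0.219), with 1 RANKL + UD library at 6.37 FPKM and the others at 3.98 and 3.87. Without that library the log2 change was −0.02. Usp18 had no call either (log2 0.15, SE 0.12).

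In the IRG and GBP group, 4 of 6 genes rose and none fell. Irgm1 measured 8.37, 9.30 and 8.98 FPKM in control, 4.16, 4.27 and 4.63 in RANKL, and 7.75, 7.18 and 7.68 in RANKL + UD. The 3 groups did not overlap, with RANKL + UD nearer to control than to RANKL. Irgm1 rose 1.63-fold with UD (log2 0.71, SE 0.0791, edgeR adjusted p = 1.42e-07).
Gbp7 rose a further 1.58-fold with UD (log2 0.66, SE 0.126), away from its control level. The other genes called higher moved towards theirs, and Ifit1 and Herc6 then had no call against control. Igtp rose by 0.65, though Irgm2 overlaps it on the same strand, and Ifi47 by 0.53. The call for Ifi47 was lost without RANKL replicate 1 or 2 or without RANKL + UD replicate 2 or 3, and its log2 change was then 0.36 to 0.55. Gbp3 (0.47) and Gbp2 (0.33) had no call.

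Among the RNA sensors and RNA-binding enzymes, Eif2ak2 (0.48), Ifih1 (0.39), Znfx1 (0.26) and Adar (0.19) rose on the log2 scale, and Dhx58 (0.22), Isg20 (0.18) and Zbp1 (0.85) had no call. Zbp1 held 18, 18 and 16 counts in RANKL and 36, 38 and 17 in RANKL + UD. One of its RANKL + UD libraries thus stood with the RANKL group, and without it the log2 change was 1.12 (edgeR adjusted p = 0.015). Znfx1 overlaps the non-coding gene Zfas1 and Adar overlaps Chrnb2, both on the opposite strand, so part of their reads may not be their own.
Parp14 (0.34) and Parp9 (0.20) rose, and Dtx3l (0.14) and Parp12 (0.14) had no call. Oas2 (0.38) and Oas3 (0.17) rose, while Oas1a (0.10) and Oasl2 (−0.22) had no call. Oas1g, the near-identical neighbour of Oas1a, was called lower with UD (log2 −0.37, edgeR adjusted p = 0.00163). Slfn8 (0.44) and Slfn5 (0.23) rose, and Slfn2 (−0.07) had no call. Of the other 8 genes, Rtp4 (0.47, a chaperone of membrane receptors), Ifi44 (0.34), Lgals3bp (0.34, a secreted glycoprotein) and Trim30a (0.30, a TRIM ligase that restrains inflammatory signalling) rose, while Bst2 (0.20), Ifi35 (0.17) and Xaf1 (−0.01) had no call.
Mx1 and Mx2, furthest down with RANKL, had no call (log2 −0.21, SE 0.47, and 0.40, SE 0.218), nor did Ifi204 (0.12, SE 0.134) or Sp100 (0.20, SE 0.0812).

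Ifi203, Ifi27l2a and Oasl1 fell. Ifi203 measured 31.43, 32.45 and 32.91 FPKM in control, 19.40, 18.12 and 17.19 in RANKL, and 13.02, 14.41 and 14.42 in RANKL + UD. It stepped down from group to group without overlap. Ifi203 was 1.39-fold lower with UD (log2 −0.47, SE 0.0573, edgeR adjusted p = 4.68e-07).
Ifi27l2a measured 303.76, 273.88 and 225.17 FPKM in control, 57.43, 60.35 and 66.54 in RANKL, and 56.80, 55.35 and 51.77 in RANKL + UD. The treated groups lay close together, the highest RANKL + UD library just below the lowest RANKL library. Its log2 change with UD was −0.25 (edgeR adjusted p = 0.0447), a call lost in 10 of 19 alternative settings.
Oasl1 measured 16.50, 17.34 and 17.72 FPKM in control, 11.73, 13.19 and 12.87 in RANKL, and 10.84, 11.31 and 11.63 in RANKL + UD. The treated groups again lay side by side without overlap. Its log2 change with UD was −0.25 (edgeR adjusted p = 0.0186), lost in 7 of 19 settings. The number of genes called lower was 1, Ifi203, with total-count scaling or without RANKL replicate 2 or 3 or RANKL + UD replicate 1 or 2.

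An ISRE match stood in 11 of the 19 genes with a promoter window that rose with UD and in 8 of the 19 that had no call or fell. The difference of 3 genes was not tested.

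**Figure D3:**
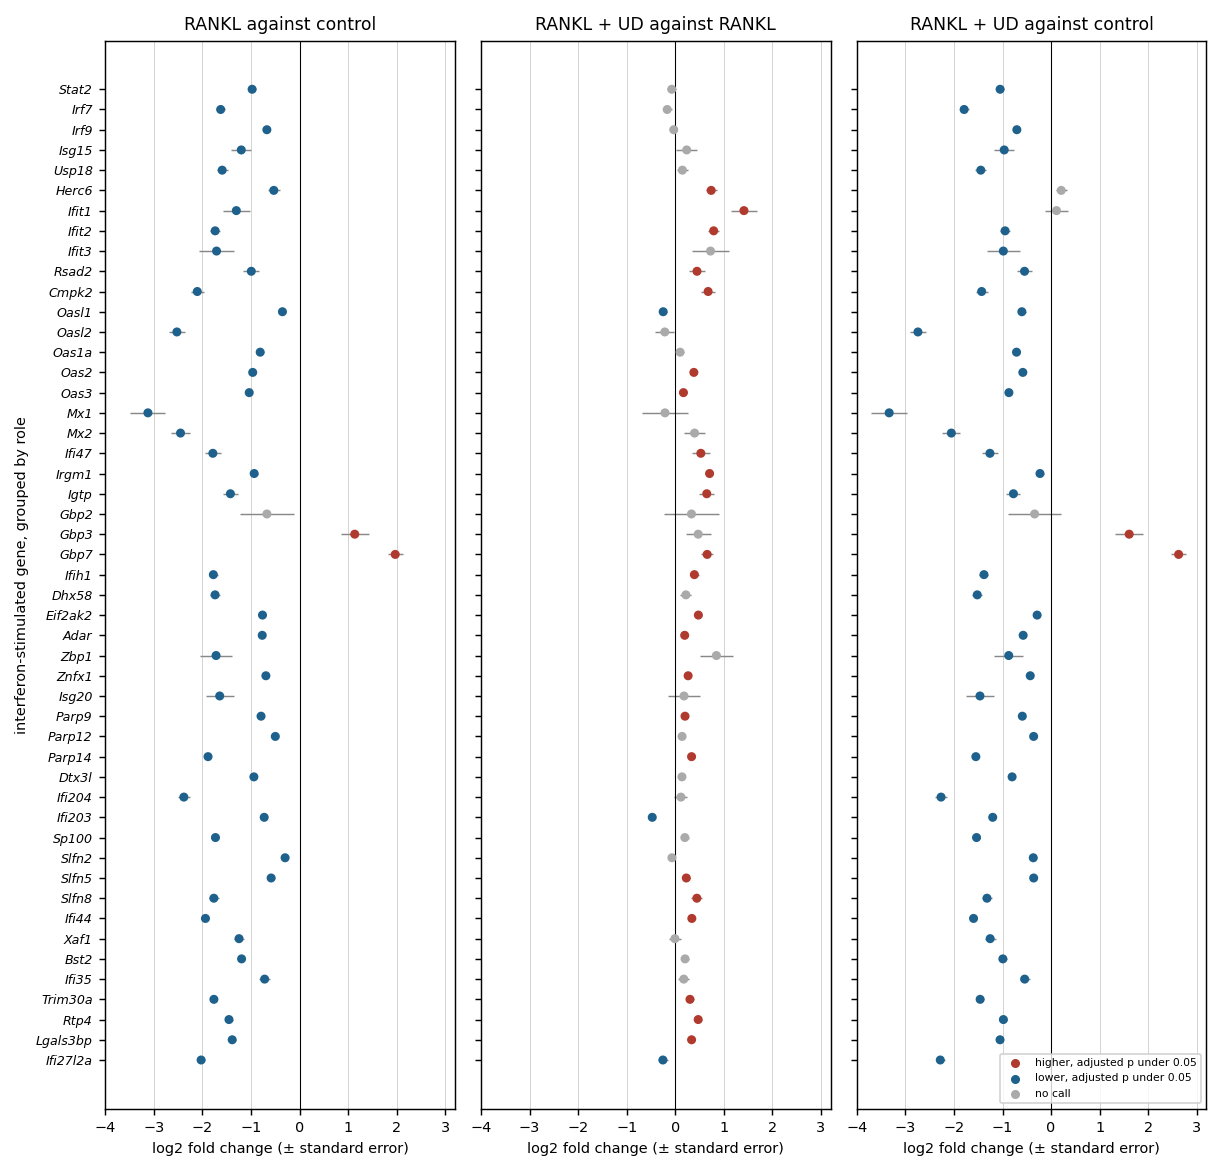
Log2 fold change of each of the 49 genes with its standard error (bars) in the 3 comparisons; red is higher, blue lower (edgeR adjusted p under 0.05) and grey no call. With RANKL 46 points are blue, and with UD 23 are red, 3 blue and 23 grey.

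The last comparison set cells given RANKL and UD beside control. Here 44 of 49 genes were lower, against 24.0% of all genes tested, 2 were higher, against 23.5%, and Herc6, Ifit1 and Gbp2 had no call. In 44 genes every RANKL + UD library lay below every control library in FPKM, against 28.2% of all genes, and in 2 above, against 26.4%. A log2 change of at least 1 was reached by 21 of the lower genes, against 8.44%, and by both higher ones, against 6.04%. The median log2 fold change was −0.96, a level 1.95-fold lower, and that of all genes was −0.001. Mx1 (log2 −3.33, SE 0.369), Oasl2 (−2.74, SE 0.164), Ifi27l2a (−2.28, SE 0.09), Ifi204 (−2.27, SE 0.119) and Mx2 (−2.05, SE 0.183) were furthest below control. Gbp7 was 6.18-fold higher (log2 2.63, SE 0.152) and Gbp3 3.05-fold (log2 1.61, SE 0.283). Irgm1, at −0.23 (edgeR adjusted p = 0.0156), and Eif2ak2, at −0.29, were the genes called lower by least. The call for Irgm1 was lost without control replicate 2 (−0.20) or RANKL + UD replicate 2 (−0.19). Herc6 was at 0.21 (SE 0.113) and Ifit1 at 0.11 (SE 0.244), and the 95% interval of the difference for Ifit1 ran from −0.37 to 0.59.

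Read side by side, 20 genes were lower with RANKL, higher with UD and still lower than control, and Herc6 and Ifit1 had the same pattern with no call against control. Another 21 genes, among them Stat2, Irf7, Irf9, Isg15, Usp18, Mx1 and Mx2, were lower with RANKL, had no call with UD and were lower than control. The comparisons share groups, the first with the second the RANKL libraries and the first with the last the control libraries. These patterns are therefore counts of calls with no test of their own. The share of all genes tested that had each pattern is not given here. Whether any of these patterns was more frequent among the genes described here than among all genes was therefore not tested.

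**Figure D4:**
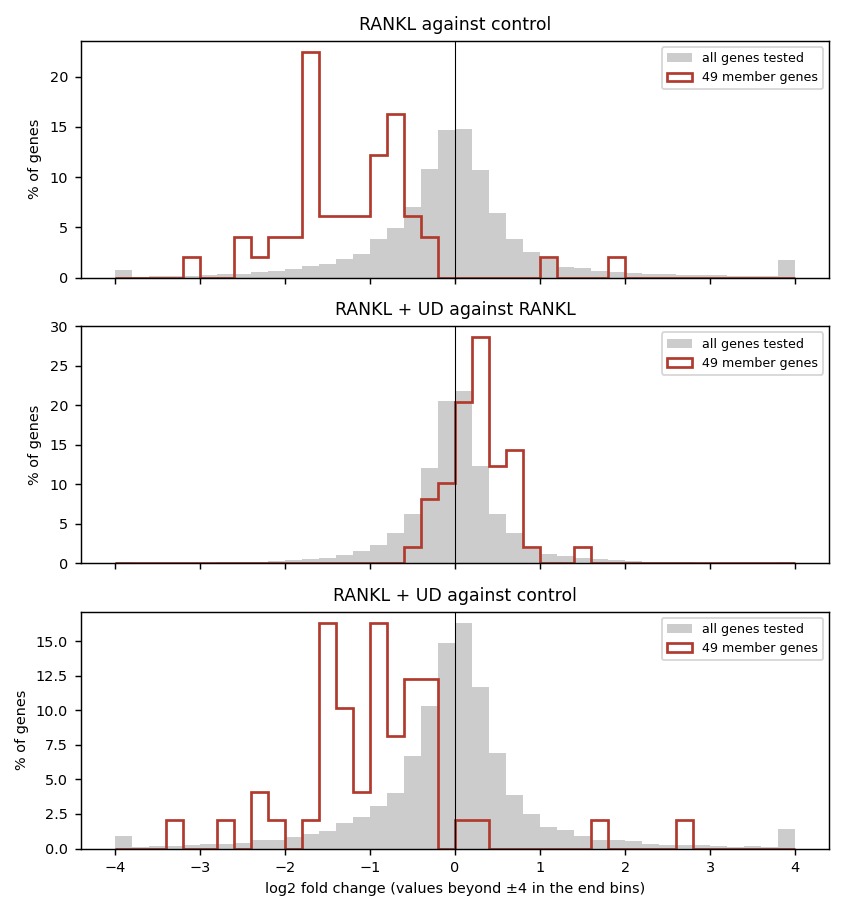
Distribution of log2 fold changes of all 15575 genes tested (grey) and of the 49 genes (red line), as a percent of each set in equal bins. The medians of the 49 genes are −1.25, 0.23 and −0.96, and those of all genes are −0.03, 0.003 and −0.001.

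Upstream of these genes, almost no interferon transcript was counted. Of 11 type I interferon genes listed, Ifnb1 (interferon-β), 7 interferon-α genes, Ifne and Ifnz had no count in any library, and Ifnk held at most 5 counts. A count of 0 allows up to 3 counts, or 0.152 to 0.188 CPM (counts scaled to the library's total) in these libraries, which covers counting error only. Ifng had no count either, and the feedback inhibitor gene Socs1 held at most 8. Trex1, a DNA exonuclease gene, is listed at 0 in every library, and no absence of expression is read from it. These 14 of 49 pathway genes were left untested.

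Of the 35 pathway genes tested, 26 were lower and 2 higher with RANKL, against 26.2% and 24.4% of all genes, and their median log2 change was −0.44, against −0.03. The receptor gene Ifnar2 measured 27.39, 29.95 and 27.89 FPKM in control, 12.38, 13.18 and 12.68 in RANKL, and 12.96, 12.54 and 12.89 in RANKL + UD. Both treated groups lay below control, and their ranges overlapped. Ifnar2 fell by 1.06, Ifnar1 by 0.19 and Tyk2 by 0.42, while Jak1 had no call (−0.02).
Irf8, the macrophage factor and brake on osteoclast formation, measured 13.01, 13.95 and 15.61 FPKM in control, 2.92, 3.24 and 3.68 in RANKL, and 2.27, 2.64 and 2.58 in RANKL + UD. It stepped down without overlap, by 2.02 with RANKL and by a further 0.48 with UD. Irf1, Irf2 and Irf3 fell by 0.71, 0.48 and 0.43 with RANKL.
Irf4 rose by 0.44 and the nucleotide hydrolase gene Samhd1 by 0.15, but the number of pathway genes called higher hung on single libraries. It was 4 without control replicate 3, 1 without RANKL replicate 1 and 0 with limma on FPKM. The endosomal RNA receptor gene Tlr7 fell by 2.16 from a mean of 99.5 to 20.8 FPKM. Socs3, a feedback inhibitor gene, fell by 3.39, the kinase gene Ikbke by 1.93 and Ddx58, the RIG-I sensor, by 1.19.

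With UD, 9 of the 35 rose and 7 fell, against 14.8% and 16.5% of all genes, and their median was 0.07, against 0.003. The number that fell was near the share of all genes. Cgas, the cytosolic DNA sensor, measured 16.52, 15.72 and 15.97 FPKM in control, 7.76, 8.15 and 7.50 in RANKL, and 12.92, 13.82 and 13.98 in RANKL + UD. The 3 groups were apart, RANKL + UD nearer to control. Cgas rose 1.64-fold with UD (log2 0.71, SE 0.0691, edgeR adjusted p = 1.49e-08).
Rnaseh2c (0.57), Ddx58 (0.49), Sting1 (0.36, the adaptor downstream of cGAS), Myd88 (0.26), Trim25 (0.25), Tlr7 (0.23) and 2 phosphatase genes, Ptpn6 (0.23) and Ptpn11 (0.18), rose as well. Irf4 (−1.07), Ticam1 (−0.72), Irf8 (−0.48), Ifnar1 (−0.26), Irf2 (−0.24), Irf5 (−0.24) and Jak1 (−0.20) fell.
Against control, 26 of the 35 were lower in RANKL + UD, against 24.0% of all genes, and none was higher in edgeR's quasi-likelihood test, against 23.5%. None was higher at an unadjusted p under 0.05, or with DESeq2 or limma, and 1 was without control replicate 1.

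**Figure D5:**
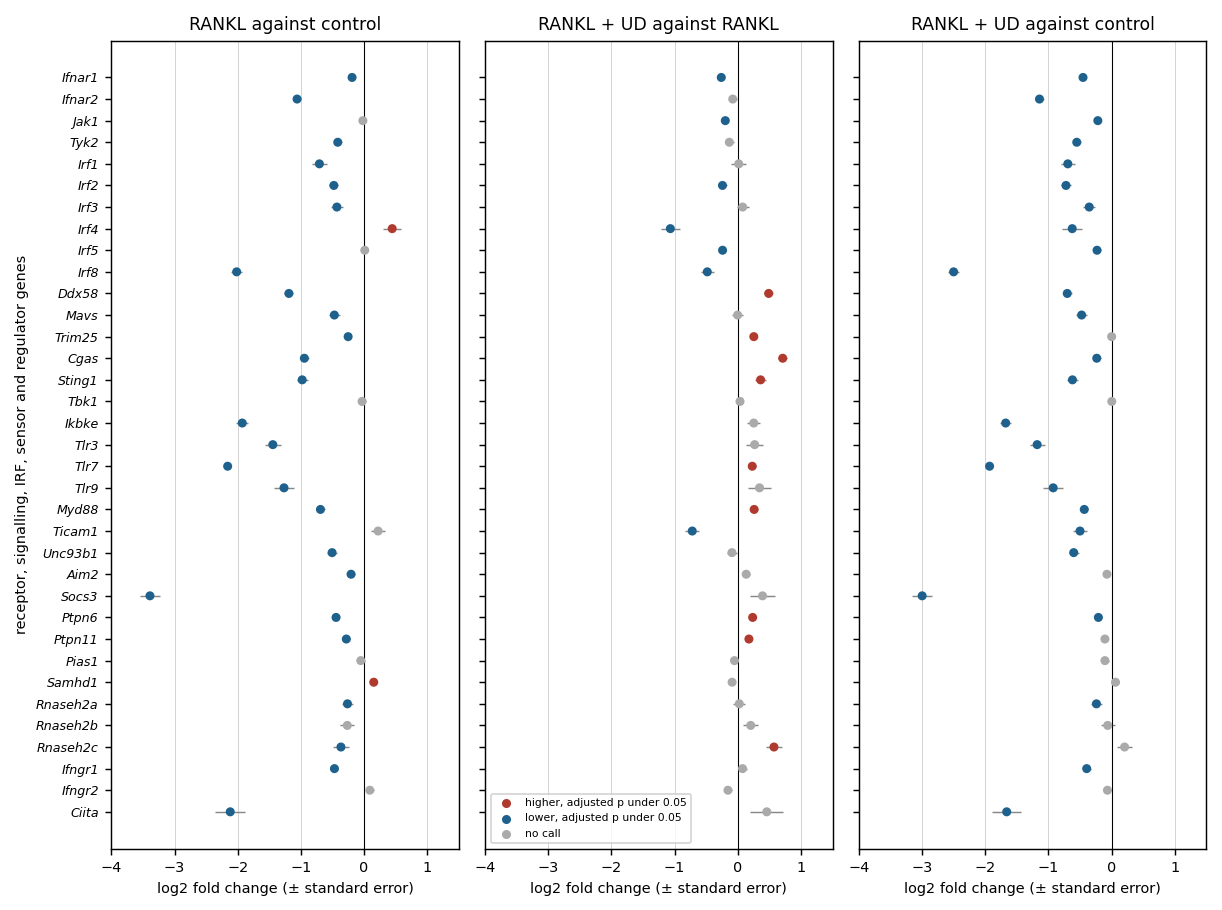
Log2 fold change of the 35 tested pathway genes with its standard error (bars) in the 3 comparisons; red is higher, blue lower (edgeR adjusted p under 0.05) and grey no call. Irf8 and Socs3 lie far left against control in both treated groups, and Cgas and Irf4 mark the ends of the UD panel.

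Relatives of the 49 genes, some in the same clusters and some on other chromosomes, were read for shared sequence, and 28 of 35 could be tested. With RANKL 17 were lower and 3 higher, against 26.2% and 24.4% of all genes. With UD 5 were higher and 4 lower, close to the 14.8% and 16.5% of all genes. Ifi44l, next to Ifi44, measured 48.32, 51.82 and 46.42 FPKM in control, 3.84, 4.59 and 3.26 in RANKL, and 8.10, 6.91 and 7.70 in RANKL + UD. It was 11.7-fold lower with RANKL (log2 −3.55, SE 0.111) and 1.83-fold higher with UD (log2 0.87, SE 0.126). That pattern is the one of Ifi44 at a larger size.
Slfn9 measured 8.31, 8.48 and 8.55 FPKM in control, 4.86, 4.09 and 3.65 in RANKL, and 8.48, 8.51 and 8.36 in RANKL + UD, so that RANKL + UD lay within the range of control. Slfn9 shares sequence with Slfn8, whose RANKL + UD level stayed 2.50-fold below control. Gbp8, a relative of Gbp7 on another chromosome, held 41, 42 and 52 counts in RANKL and 5, 3 and 4 in RANKL + UD. Its change with UD was opposite to that of Gbp7 (log2 −3.41, SE 0.418). Gbp4 and Gbp9 overlap Gbp8 on the same strand, so its reads may not all be its own. Ifi27, a relative of Ifi27l2a, rose 3.36-fold with RANKL (log2 1.75, SE 0.0644), while Ifi27l2a fell 4.08-fold.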

How the data were processed

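The authors sequenced poly(A) RNA from RAW264.7 cells as strand-specific paired-end libraries, 3 per group, and deposited 1 table with counts (whole reads per gene, not normalized) and FPKM values (counts per exonic length and total count) for each library. The table's 18 value columns were matched by name, with those named Model taken as RANKL, the name the study uses for that group. No count stands on a row without a gene. The aligner and counting tool are not given in the sources used here. The submitters' processing notes name mm10, but none of the 49 genes has the same coordinates in the table as in GRCm38, so no coordinate of the table is printed. Genes with at least 10 counts in any library (15575) were tested on the counts with edgeR 4.0.16 (R 4.3.3), quasi-likelihood, TMM scaling, all 9 libraries in one fit, Benjamini-Hochberg adjustment and a threshold of 0.05, with no covariate. TMM factors were 0.956 to 0.961 for RANKL and 1.01 to 1.03 for the others. Simulated data for RANKL + UD against RANKL over 15575 genes, 200 of them changed, recovered 98% of log2 changes of 1 and 81% of 0.5, with 12 false calls. The changed genes were drawn only from those above a minimum expected count. Every gene had the same simulated spread, with no shift in TMM factors between groups. Recovery for genes with few counts was therefore not measured.

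Values in every library are given for the regulators, for up to 5 genes with the largest rise and fall among the calls of each comparison, and for genes without any call. Ifi44, Ifit3, Isg15 and Zbp1, and the pathway genes and relatives given by library, were chosen after their values were seen. The members and lists were chosen with earlier results of these data known. Alternatives were total counts, RLE, upper-quartile scaling, no filter, an FPKM of at least 1 in 3 libraries, DESeq2 1.42.0, limma 3.58.1 on log2(FPKM + 1) and log2(FPKM + 0.1), only the 6 libraries compared, a replicate block, each library left out, and a log2 change of at least 1. With 3 libraries against 3, an exact test cannot give a two-sided p under 0.1. Promoters were searched on both strands. One gene of the pathway list is not reported here and is in no count of that list.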

Additional observations from a re-analysis of the deposited data

How the results depend on the processing

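With RANKL, the 49 genes kept direction and call in the 19 settings that change scaling, filter, tool, block or libraries, except that the FPKM filter left out Gbp2, Gbp3 and Zbp1. With a log2 change of at least 1 required, 28 genes were lower, and the median was −1.34 with total counts, −0.96 with limma on log2(FPKM + 1), and −1.29 to −1.16 with 1 library left out. Under the FPKM filter, which kept 46 genes, 1 was higher against control in either treated group.

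With UD against RANKL, 20 to 24 genes were higher with 1 library left out and 22 to 29 in the other settings. With a log2 change of at least 1 required, 1 was higher and 0 lower. The number lower was 1 with total counts and both limma fits, and 1 to 3 with 1 library left out. The median was 0.32 with total counts. The total-count setting differs from the main fit only in its scaling, and the FPKM of both limma fits also divides by the total count. Some genes with no call changed sign in all of these settings. With total counts, limma on log2(FPKM + 1) and on log2(FPKM + 0.1) in this order, they were Stat2 (0.014, 0.0094 and 0.011), Irf9 (0.055, 0.046 and 0.052), Slfn2 (0.018, 0.019 and 0.020) and Xaf1 (0.078, 0.051 and 0.072). With 1 library left out, the log2 change ranged from −0.070 to 0.012 for Irf9, −0.053 to 0.026 for Xaf1, −0.47 to 0.047 for Mx1, −0.022 to 0.36 for Isg15, −0.033 to 0.27 for Ifi204 and −0.0086 to 0.26 for Usp18. Calls were lost with a library left out for Oas3 (without RANKL 1, RANKL 3 or RANKL + UD 3, 0.13 to 0.16), Adar (RANKL 3, RANKL + UD 2 or 3, 0.16 to 0.17), and Slfn5 (RANKL 2 or RANKL + UD 1, 0.17 to 0.19). Oasl1 then ranged from −0.25 to −0.22, with edgeR adjusted p up to 0.086.

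Against control with UD, 21 genes were lower at a log2 change of at least 1. The median was −0.80 with limma on log2(FPKM + 1) and −1.05 to −0.90 with 1 library left out. Ifit1, with no call, ranged from −0.096 to 0.32, below 0 without control replicate 2 or RANKL + UD replicate 2. Ifit3 and Zbp1 lost their calls without control 3 (−0.89 and −0.79) or RANKL + UD 3 (−0.70 and −0.60), and Herc6 was called higher (0.31) without control 1.

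For the 35 pathway genes tested, a log2 change of at least 1 left 0 higher and 9 lower with RANKL, 0 and 1 with UD, and 7 lower with UD against control. Of all genes tested, 7.07% were higher and 8.25% lower at this size with RANKL, and 1.68% and 2.22% with UD. Against control with UD, 8.44% were lower. The 1 lower with UD was near the share of all genes. With RANKL, the number higher was 1 with total counts, 0 with both limma fits and 1 to 4 with 1 library left out, and the median was −0.54 with total counts and with limma on log2(FPKM + 0.1) and −0.50 with limma on log2(FPKM + 1). With UD, the median was 0.16 with total counts and 0.15 with limma on log2(FPKM + 0.1). Against control, 0 to 1 was higher with 1 library left out.

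Deviations of same-numbered libraries correlated at −0.03 to 0.16, and those of libraries with different numbers at −0.18 to 0.11. These ranges overlap, so replicate numbers gave no clear pairing, which does not exclude a weak one. With the replicate block, 2414 of all genes were higher and 2644 lower with UD against RANKL, against 2312 and 2564 without it, and of the 49 genes the call of Bst2 alone changed (0.20, edgeR adjusted p = 0.0451). A best match with its own number was found for 3 of 9 libraries. Depth limits Gbp2, Gbp3, Mx1, Zbp1, Ifit1 and Ifit3, each under 100 counts in every library.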

Other observations

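Genes that the deposited table annotates to interferon or antiviral terms, but that are in none of the lists above, were read after the values of the 49 genes were seen. Of 20 tested genes annotated as cellular response to interferon-beta, 8 were higher and 7 lower with RANKL, and 4 were higher and 5 lower with UD against RANKL. Of all genes tested, 24.4% were higher and 26.2% lower with RANKL, and 14.8% and 16.5% with UD. Of 94 annotated as defense response to virus, 29 were higher and 32 lower with RANKL, and 22 were higher and 20 lower with UD. The median log2 changes with RANKL and with UD were 0.06 and −0.11 in the smaller set, and −0.04 and 0.02 in the larger set.

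Ifi202b, a p200 family gene whose protein binds DNA, ran against Ifi204. Its mean was 61.9 FPKM in control, 244 in RANKL and 106 in RANKL + UD, a log2 change of 2.07 (SE 0.054) with RANKL and −1.29 (SE 0.052) with UD. Gm18445, an unnamed gene of the same term, moved likewise, by 5.25 and −1.57. Reads of p200 family genes are uncertain between copies. Cxcl10, the interferon-inducible chemokine, measured 2.40, 0.390 and 0.993 FPKM in the same order, and its log2 changes were −2.52 (SE 0.26) and 1.26 (SE 0.281). Oas1h, an OAS family gene outside the 49, changed by −2.34 and 1.47. Tlr8, the endosomal RNA receptor, fell by 4.57 with RANKL, and Itgax, the integrin CD11c, rose by 1.63 with RANKL and fell by 1.37 with UD.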
